A study of Homo sapiens with 6 samples.

Results

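The cytosolic ribosomal protein (RP) genes were taken as the protein-coding RefSeq genes of GRCh38 whose symbol is RPL or RPS and a number, with an optional A, X, Y or L ending, together with RPLP0, RPLP1, RPLP2 and RPSA. The kinase genes named RPS6K and the genes of the Y chromosome were left out. The rule found 81 of 19974 protein-coding genes, 49 of the large subunit and 32 of the small subunit. The rule uses no measured value, but the set was chosen with earlier results of these data known. A peak was assigned to an RP gene when its midpoint lay in the gene or within 1 kb of it.

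Every cytosolic ribosome is built from ribosomal RNA and one copy of most of these proteins, so that the genes are used together and at high level in growing cells. Their mRNAs typically begin with a C followed by an unbroken run of pyrimidines, the 5′ terminal oligopyrimidine (TOP) tract, which places their translation under the control of the growth-signalling kinase mTOR. Their promoters are active in nearly every cell type, and some of the proteins, such as RPL5 and RPL11, also bind MDM2 when ribosome assembly is disturbed.

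Accessible chromatin was mapped by ATAC-seq, in which the transposase Tn5 inserts adapters into open DNA, in RKO, an established colon cancer cell line. All 6 samples were of this 1 line, 3 treated with aphidicolin (APH), an inhibitor of the replicative DNA polymerases, at 0.2 µM for 16 h and 3 treated with the vehicle DMSO, and no sample carried a genetic change made by the study. The paper describes the replicates as independent experiments, and the question here was whether accessibility at the RP genes differed after this mild replication stress. In a bulk sample, fewer cells with an open site and a less open site in each cell cannot be told apart.

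The deposited lists held 64511 to 84510 peaks per sample, each with 1 value, the mean coverage over that peak. Coverage counted alignments, lengthened to 200 bp, per bin of 32 nt. It was not scaled to library size, and since depth is unknown, unequal depth of the samples would enter the values. The mean over all peaks was 78.3, 85.2 and 83.1 in DMSO 1 to 3 and 69.4, 73.0 and 71.0 in APH 1 to 3, over lists of unequal length. Of the labelled cell type, the start of EPCAM, KRT8, CDX2 and LGR5 had a peak in all 6 samples, KRT18 in 5 and KRT20 in 2, and CDH1, KRT19, CDX1 and VIL1 had none. The blood and endothelial markers PTPRC, CD3E and PECAM1 and the mesenchymal marker VIM had none, while COL1A1 and MITF had a start peak in all 6 samples.

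The RP genes were short and almost uniformly open at their start. Their median length was 5.02 kb, against 24.2 kb for all protein-coding genes, and they were spread over 21 chromosomes, with 12 on chromosome 19 and 8 on chromosome 3. A peak was found in or near 80 of the 81 genes in every sample, and 23 had exactly 1 peak in each of them. Merging the peaks of the 6 samples wherever they shared 1 bp or more gave 102784 regions, of which 50150 had a peak in all 6 samples (shared regions). The start region of a gene is the merged region whose peak midpoint lay nearest to its annotated start, within 1 kb. A shared start region was found for 77 RP genes, or 95.1%, against 53.8% of all protein-coding genes.

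The 4 genes without a shared start region were 3 tissue-restricted paralogs and RPL19. RPL10L, a retrogene of RPL10 expressed in testis, had no peak in any sample, and RPL3L, the striated muscle paralog of RPL3, and RPL39L, a paralog of RPL39, had peaks elsewhere in or near the gene but none at the start. RPL19 encodes a large subunit protein present in all ribosomes. Its start region (chr17:39200315-39200535) had a peak only in DMSO 3, at 64.7, and in APH 3, at 58.0. A second region centred 294 bp upstream of the RPL19 start had values of 70.4, 59.4 and 71.8 in DMSO 1 to 3 and 55.4 in APH 3, with no peak in APH 1 and APH 2. RPS27L, a p53-inducible paralog of RPS27, had a start peak in all 6 samples.

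RefSeq promoter sequences (GRCh38.p14, 250 bases before and 50 from the start on) were at hand for 62 of the 81 genes at the annotated start. Some of them are printed here because their letters around the start carry what the group has in common. Each shows 125 bases before the start and the first 25 from it, on the strand of the gene, 5′ to 3′. Capitals mark the unbroken run of C and T that holds the first transcribed base, and the letters CCGGAAG (the core bound by ETS factors) or TCGCGA on either strand. The first set holds RPL7A, one of the highest start regions, and the stalk proteins RPLP0, RPLP1 and RPLP2, which recruit the elongation factors. They lie at chr9:133348093-133348242 (+), chr12:120201087-120201236 (-), chr15:69452693-69452842 (+) and chr11:809842-809991 (+).
RPL7A: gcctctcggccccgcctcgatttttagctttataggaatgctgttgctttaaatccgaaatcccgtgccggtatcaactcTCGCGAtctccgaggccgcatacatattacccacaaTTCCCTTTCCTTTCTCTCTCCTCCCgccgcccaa
RPLP0: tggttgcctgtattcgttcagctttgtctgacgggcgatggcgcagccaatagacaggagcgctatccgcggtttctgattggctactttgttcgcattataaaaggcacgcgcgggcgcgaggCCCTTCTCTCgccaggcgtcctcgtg
RPLP1: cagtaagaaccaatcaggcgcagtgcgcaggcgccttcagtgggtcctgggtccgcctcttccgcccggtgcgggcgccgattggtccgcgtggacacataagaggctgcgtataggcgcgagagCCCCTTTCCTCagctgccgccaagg
RPLP2: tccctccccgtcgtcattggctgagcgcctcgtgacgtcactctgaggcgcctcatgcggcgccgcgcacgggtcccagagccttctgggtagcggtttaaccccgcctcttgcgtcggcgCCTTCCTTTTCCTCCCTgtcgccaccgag

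The second set holds RPL3, RPL21 and RPS12, which are described below for their differences between APH and DMSO, at chr22:39319599-39319748 (-), chr13:27251433-27251582 (+) and chr6:132814444-132814593 (+).
RPL3: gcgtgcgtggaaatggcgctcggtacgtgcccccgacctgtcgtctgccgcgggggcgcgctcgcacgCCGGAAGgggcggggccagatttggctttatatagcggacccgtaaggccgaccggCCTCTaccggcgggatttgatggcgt
RPL21: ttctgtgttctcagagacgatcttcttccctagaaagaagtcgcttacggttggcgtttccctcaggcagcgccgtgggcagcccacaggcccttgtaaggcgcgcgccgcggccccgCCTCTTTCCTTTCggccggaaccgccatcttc
RPS12: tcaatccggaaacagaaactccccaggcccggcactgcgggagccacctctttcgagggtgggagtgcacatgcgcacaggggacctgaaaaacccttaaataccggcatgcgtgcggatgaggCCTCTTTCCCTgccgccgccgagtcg

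The third set holds 4 of the 5 genes with the lowest start regions, RPL38, RPS23, RPL32 and RPS29, at chr17:74203553-74203702 (+), chr5:82278330-82278479 (-), chr3:12841558-12841707 (-) and chr14:49598686-49598835 (-).
RPL38: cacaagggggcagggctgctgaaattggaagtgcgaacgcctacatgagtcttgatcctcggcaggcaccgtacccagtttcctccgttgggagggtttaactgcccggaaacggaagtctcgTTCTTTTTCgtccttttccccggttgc
RPS23: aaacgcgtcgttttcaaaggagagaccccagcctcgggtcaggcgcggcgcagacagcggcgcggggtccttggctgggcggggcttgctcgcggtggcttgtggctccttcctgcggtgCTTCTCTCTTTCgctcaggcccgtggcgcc
RPL32: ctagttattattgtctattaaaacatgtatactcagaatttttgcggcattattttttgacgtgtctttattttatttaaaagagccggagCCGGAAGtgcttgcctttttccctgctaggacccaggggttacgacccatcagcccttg
RPS29: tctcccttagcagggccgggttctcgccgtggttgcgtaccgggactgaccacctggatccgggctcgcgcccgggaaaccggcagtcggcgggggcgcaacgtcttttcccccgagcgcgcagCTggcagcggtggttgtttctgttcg

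Most RP promoters shared the pyrimidine start. The first base was C in 46 of 62 RP promoters, or 74.2%, and in 11.3% of all 13793 promoters in the table. A C at the first base with at least 5 pyrimidines in unbroken order from it was found in 42, or 67.7%, against 4.57% of all promoters, and a run of at least 8 pyrimidines over the first base in 64.5% against 4.51%. The median run was 10.5 bases in the RP promoters and 0.0 in all promoters. RPL7A had a run of 25 bases, RPLP2 of 17 and RPL21 of 13. RPL32 had none at its annotated start and RPS29 had one of 2 bases.

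Among 8 exact motifs searched on both strands of the 300 bases, TCGCGA was found in 14 RP promoters, or 22.6%, against 4.47% of all promoters. CCGGAAG was found in 22, or 35.5%, against 14.6%. AAGATGGC, part of the YY1 motif, was found in 9.68% against 4.11%. The shares of the others were nearer to those of all promoters, with GGGCGG (the GC box) in 56.5% against 58.5%, CCAAT in 37.1% against 37.1%, TATAAA in 9.68% against 10.0%, CACGTG (the E-box of MYC) in 4.84% against 8.95% and GCGCATGC (part of the NRF1 motif) in 4.84% against 4.45%. Matches of different motifs were allowed to overlap. The median GC content was 59.7% in RP promoters and 62.7% in all promoters. A match of letters is a description of the sequence and not a measured site.

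The RP start regions lay mostly upstream of the start and ended soon after it. They covered the annotated start in 75 of 77 genes, or 97.4%, against 92.7% of the 10742 protein-coding genes with a shared start region. The region midpoint lay upstream of the start in 66 of 77, or 85.7%, against 50.7% of all, with a median of -105 bp (quartiles -230 and -36.5) against -4.25 bp. At 300 bp upstream 83.1% of RP start regions and 73.5% of all start regions still covered the position. At 300 bp downstream it was 27.3% against 62.1%, and at 500 bp downstream 9.09% against 42.3%. The merged regions had a median length of 764 bp for the RP genes and 913 bp for all. The midpoint of RPS27A, which encodes a fusion of ubiquitin and an RP, lay 569 bp downstream, and its region started beyond the annotated gene start.

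**Figure D1:**
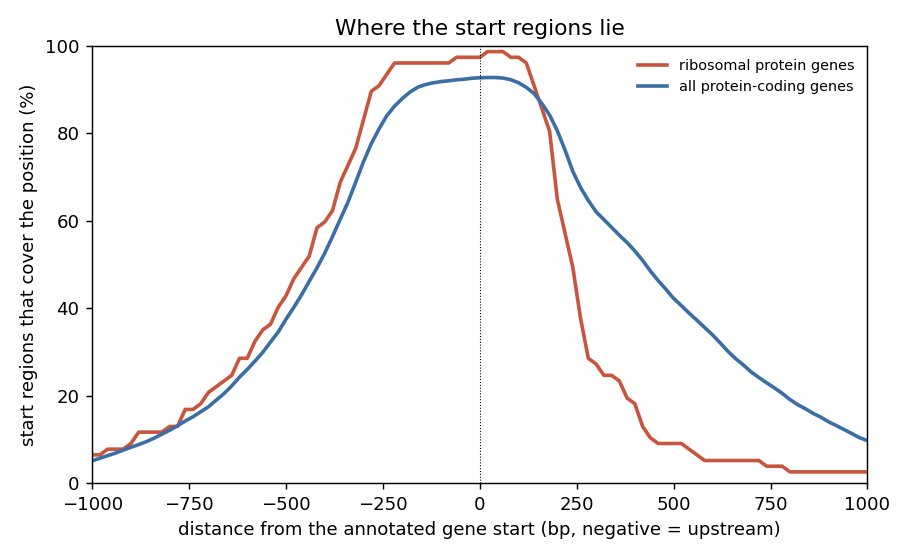
Share of start regions (y axis, in %) that cover each distance from the annotated gene start (x axis, in bp, upstream negative), for the 77 ribosomal protein genes and for the 10742 protein-coding genes with a shared start region. The line of the ribosomal protein genes lies above the other at 300 bp upstream, at 83.1% against 73.5%, and below it at 300 bp downstream, at 27.3% against 62.1%.

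The start region also held the annotated start of another protein-coding gene in 19 of 77 cases, so that its value cannot be assigned to the RP gene alone. Such pairs were RPL7A with MED22, RPLP2 with PIDD1, RPL12 with LRSAM1, RPL9 with LIAS, RPL6 with PTPN11, RPS29 with LRR1, RPL4 with ZWILCH, RPS18 with VPS52 and RPL36A with BTK. In 3 of the 19 the other gene, or 1 of 2, was a readthrough locus named after the RP gene itself, as RPL17-C18orf32, RPS10-NUDT3 and RPL36A-HNRNPH2.

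The RP start regions were among the stronger regions of these cells. Their mean value over the 6 samples had a median of 209, against 142 over all 9470 protein-coding start regions and 68.5 over all shared regions. The median RP gene stood at percentile 75.6 of the protein-coding start regions, 64 of 77 stood above their median, and 40 of 77, or 51.9%, belonged to the strongest of 10 equal groups of all shared regions ranked by value, against 29.1% of protein-coding start regions. The median was 195 over the large subunit genes and 211 over the small subunit genes, and the lowest values were 72.9 and 95.5.

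Among the high start regions, RPL27, a large subunit protein, had 399, 519 and 400 in DMSO and 373, 414 and 307 in APH. RPL7A had 440, 518 and 404 in DMSO and 342, 361 and 306 in APH, and RPL8 had 390, 447 and 427 in DMSO and 352, 329 and 363 in APH. RPL27, RPL7A and RPL8 had means over the 6 samples of 402, 395 and 385, with SDs of 16.9 to 68.8 between the replicates of a group, so that their order is not set by these data.

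RPL32, a large subunit protein, had the lowest shared start region, with 71.0, 91.9 and 87.0 in DMSO and 56.4, 65.4 and 65.9 in APH. RPL4, which lines the tunnel through which the new protein leaves the ribosome, had 99.0, 98.3 and 113 in DMSO and 70.3, 78.2 and 96.4 in APH. RPL38 had 95.9, 116 and 109 in DMSO and 85.5, 79.8 and 73.9 in APH. These 3, and also RPS23 and RPS29, were below the median RP gene in each sample. RPS23, which lies at the decoding centre, had 117, 113 and 112 in DMSO and 60.7, 78.6 and 92.0 in APH. RPS29 had 123, 103 and 114 in DMSO and 81.7, 74.8 and 87.6 in APH. RPL4, RPL38, RPS23 and RPS29 had means from 92.4 to 97.3 and replicate SDs from 2.72 to 15.7, and their order changed from sample to sample.

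The annotated start did not always mark the strongest region. In RPS29 a region centred 12130 bp downstream of the start had 214, 300 and 217 in DMSO and 183, 224 and 178 in APH, above the start region in every sample. In RPL6, another large subunit gene, a region centred 9323 bp downstream had 162, 197 and 149 in DMSO and 127, 141 and 102 in APH, against 137, 119 and 121 and 85.6, 73.5 and 100 at the start. RPL4 likewise had a region 6895 bp downstream with 252, 332 and 265 in DMSO and 279, 296 and 244 in APH, which is the start region of SNAPC5.

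**Figure D2:**
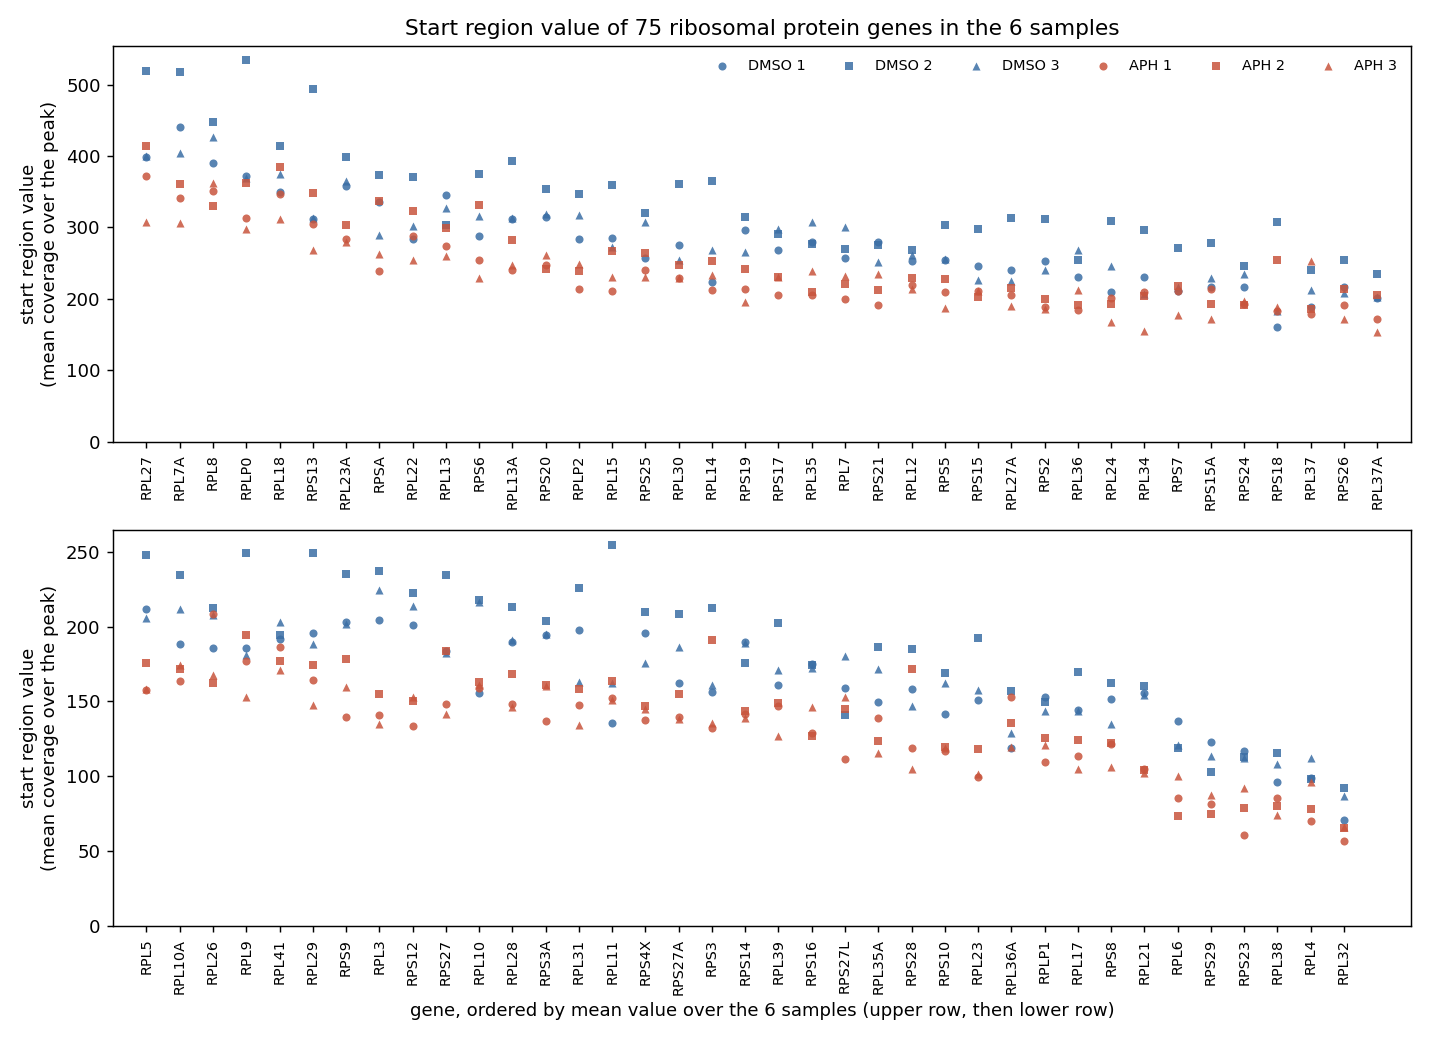
Start region value (y axis, mean coverage over the peak) of 75 ribosomal protein genes with a shared start region, ordered by their mean (x axis, in 2 rows with separate y scales that both begin at 0). Each point is 1 sample, blue for DMSO and red for APH, with a shape for each replicate. The red points lie below all blue points of the same gene in 52 of these genes, and the DMSO 2 square is the highest of the 6 in 59.

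After APH the RP start regions had lower values almost without exception, and so had most protein-coding start regions. The log2 change from DMSO to APH was below 0 in 76 of 77, or 98.7%, against 92.7% of protein-coding start regions. Over all shared regions 40.7% had a change above 0. The RP start regions had a median of -0.36 and a range from -0.64 in RPL23 to 0.015 in RPL36A. The median over all 9470 protein-coding start regions was -0.27 and over all 50150 shared regions -0.06. Limma was fitted on log2(value + 1) without pairing samples by replicate number. A fit with a replicate block called more regions and is given in the closing section. Without it, limma gave no RP start region at an adjusted p below 0.05, the smallest being 0.29. No other region passed either (0.0% called lower and 0.0% higher). At an unadjusted p below 0.05, 49 RP start regions were lower and 0 higher, or 63.6% lower, against 10.1% lower and 2.46% higher over all shared regions and 34.5% lower and 0.348% higher over protein-coding start regions. This count fell to 11, or 14.3%, with quantile normalization, where 4.6% of all shared and 8.70% of protein-coding start regions were lower. Without APH 1 it was 29, or 37.7%, against 4.12% and 14.1%. All APH samples lay below all DMSO samples in 53 of 77, or 68.8%, and above them in 0. For comparison, such separated groups were found lower in 14.4% and higher in 4.21% of all shared regions, and lower in 41.9% and higher in 0.729% of protein-coding start regions.

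The medians per sample set the RP genes beside all gene starts. The median RP start value was 204, 249 and 213 in DMSO 1 to 3 (222 ± 23.7, SD, n = 3) and 184, 191 and 171 in APH 1 to 3 (182 ± 10.2, SD, n = 3), and the groups did not overlap. The median over all protein-coding start regions was 148, 155 and 161 in DMSO and 121, 127 and 135 in APH, and did not overlap either. The ratio of the RP median to the protein-coding median was 1.38, 1.61 and 1.32 in DMSO and 1.52, 1.50 and 1.27 in APH, so that it overlapped between the groups. Relative to the median of all shared regions of the sample, the RP median was 3.15, 3.22 and 3.31 in DMSO and 2.73, 2.60 and 2.78 in APH, with no overlap. DMSO 2 had the highest of the 6 values in 61 of 77 RP genes and APH 3 the lowest in 37.

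**Figure D3:**
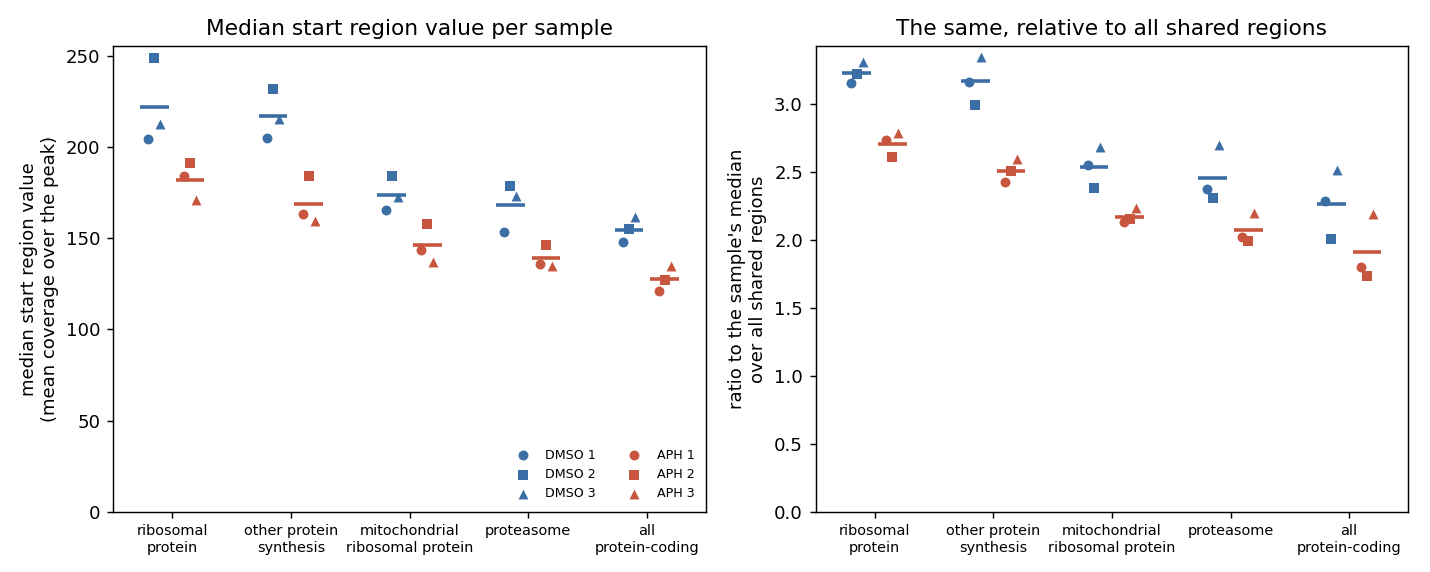
Median start region value (left, y axis in mean coverage) and the same divided by the sample's median over all shared regions (right, y axis as a ratio) for 5 gene lists (x axis). Points are the 6 samples, blue for DMSO and red for APH, and bars are the means of 3 samples. In both panels the red points lie below the blue points for the ribosomal protein genes and the 3 smaller lists, and the right panel shows 3.15 to 3.31 in DMSO and 2.60 to 2.78 in APH for the ribosomal protein genes.

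The RP genes with the smallest p all belonged to the lower direction. RPL3, a large subunit core protein near the peptidyl transferase centre, had 204, 237 and 224 in DMSO and 141, 155 and 135 in APH, a log2 change of -0.62 ± 0.13 (SE). RPL21, another large subunit protein, had 156, 160 and 154 in DMSO and 105, 104 and 102 in APH, a change of -0.59 ± 0.14. The genes of this paragraph were named by small p and separated groups, so close replicates and distant groups follow from that choice. RPL23, a large subunit protein that can bind MDM2, had 151, 192 and 157 in DMSO and 99.3, 118 and 102 in APH, a change of -0.64 ± 0.15. RPS12, a small subunit protein, had 201, 223 and 214 in DMSO and 134, 150 and 153 in APH, a change of -0.54 ± 0.13. RPS2, also of the small subunit, had 253, 311 and 240 in DMSO and 189, 199 and 186 in APH, a change of -0.47 ± 0.14. The adjusted p was 0.29 for each of these 5 genes.

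Members with other roles showed the same sign. The stalk genes RPLP0, RPLP1 and RPLP2 had changes of -0.37, -0.33 and -0.43, each with all APH samples below all DMSO samples. RPL5, which joins RPL11 and 5S RNA in the particle that binds MDM2, had 212, 248 and 206 in DMSO and 158, 176 and 158 in APH. RPL11 had 136, 255 and 162 in DMSO and 152, 163 and 151 in APH, so its groups overlapped, and its change of -0.19 ± 0.18 rested on DMSO 2, being 0.066 without that sample. RPS19 and RPL35A, mutated in Diamond-Blackfan anaemia, had changes of -0.43 and -0.42 with separated groups.

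RPS4X, encoded on the X chromosome, and RPS27A also had separated groups, with changes of -0.43 and -0.36. RPS6, the substrate of S6 kinase, and RPSA, the laminin receptor precursor, had changes of -0.27 and -0.26 with overlapping groups. RPS27L, the p53-inducible paralog, had 159, 141 and 180 in DMSO and 112, 145 and 153 in APH. Its change of -0.23 ± 0.16 was within the spread of the samples. RPL36A, whose region also holds the start of BTK, had 119, 157 and 129 in DMSO and 153, 135 and 120 in APH and was the 1 gene with a change above 0.

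Values by subunit and by promoter sequence lay side by side. The median change was -0.36 over 45 large subunit genes and -0.35 over 32 small subunit genes, and the groups were separated and lower in 33 and 20 of them, or 73.3% and 62.5%, against 41.9% of protein-coding start regions. The 42 genes with a C and at least 5 pyrimidines at the start had a median value of 204 and a median change of -0.36, and the 18 with a promoter sequence and a shared start region but without that start had 174 and -0.32. For TCGCGA the median values with and without the motif were 226 and 185, with changes of -0.34 and -0.35, and for CCGGAAG 187 and 190, with changes of -0.36 and -0.33. These are descriptions, and the differences between subunits and motif classes were not tested.

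Other genes of protein synthesis are listed for comparison. Of 43 genes encoding translation factors, nucleolar proteins and a few further RPs, 39 had a shared start region, and their median change was -0.34, with 26, or 66.7%, separated and lower. In this list EEF1A1, the elongation factor that delivers tRNA, had a change of -0.34, EIF4A1, the helicase of cap-dependent initiation, -0.47, and TPT1, itself a TOP mRNA, -0.43, each with separated groups. NCL, the nucleolar protein nucleolin, had -0.23, and EIF3M -0.05 with overlapping groups. The mitochondrial RP genes, which encode the ribosome of another compartment, had a median of -0.29 over 72 regions, with 51.4% separated and lower, and the proteasome genes -0.30 over 37 regions, with 43.2%. Over all protein-coding start regions this share was 41.9%, and over all shared regions 14.4%.

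**Figure D4:**
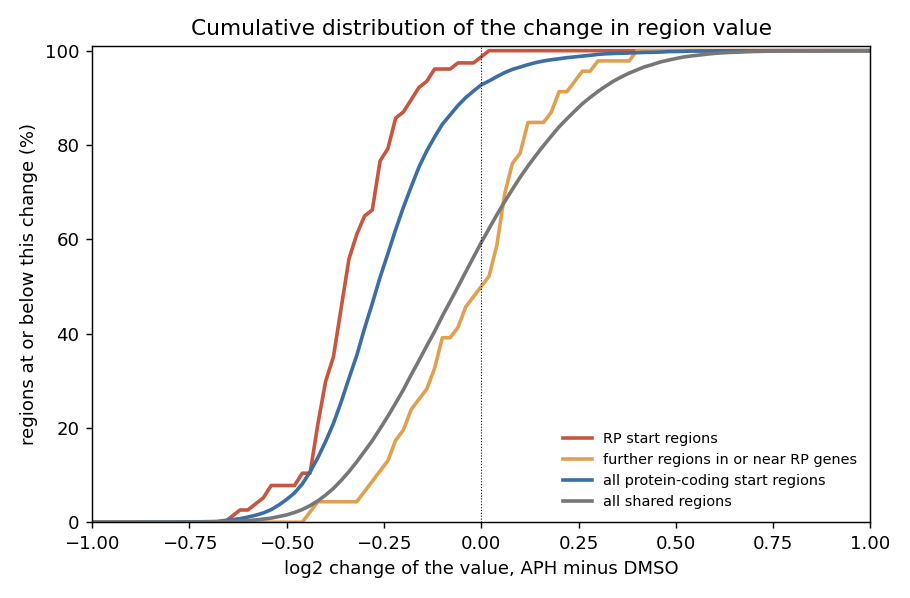
Cumulative share of regions (y axis, in %) at or below each log2 change of the value from DMSO to APH (x axis), for the 77 ribosomal protein start regions, the 46 further shared regions in or near the same genes, all 9470 protein-coding start regions and all 50150 shared regions. The curve of the ribosomal protein starts has a median of -0.36, against -0.27 for protein-coding starts, and the 2 curves cross at changes below -0.36. The further regions had a peak centred in the gene or within 1 kb of it in all 6 samples. Their curve has a median of 0.0070, against -0.06 for all shared regions.

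Away from the start, the same genes showed no such shift. In or near the RP genes 99 regions other than the start region held a peak in at least 1 sample. In 46 of them, in 33 genes, a peak centred in the gene or within 1 kb of it was found in all 6 samples. Shared regions with such a peak in only some samples were left out. These lay near RPL27, RPL3, RPL35, RPS3A and RPS9, with changes of 0.014, 0.047, 0.25, 0.27 and 0.16. Of the 46, 6 were the start region of another protein-coding gene. The median value of the 46 was 118 and their median change 0.0070, against -0.36 at the RP starts. At an unadjusted p below 0.05, 2 were lower and 1 higher, against 10.1% and 2.46% of all shared regions. Of the 46, 6, or 13.0%, were separated and lower and 2 separated and higher, against 14.4% and 4.21% of all shared regions. The region 3996.5 bp downstream of the RPL7A start, for example, had 220, 311 and 233 in DMSO and 278, 274 and 230 in APH, while the RPL7A start region was lower in each APH sample than in each DMSO sample. The 46 regions were weaker than the starts, and no test of start against further regions was made.

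The most peaks per sample were found in RPL28, RPS19, RPL10, RPL38 and RPL4. RPL28, a large subunit gene, had 6, 6 and 5 peaks in DMSO and 6, 5 and 4 in APH. RPL10, which joins the large subunit late in assembly, had 3, 4 and 4 in DMSO and 5 in each APH sample. A region 4100 bp downstream of the RPL10 start had a peak in the 3 APH samples, at 130, 118 and 96.0, and in no DMSO sample. Over all RP genes 145, 157 and 156 peaks were counted in DMSO and 159, 160 and 149 in APH, so the groups overlapped.

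Among the RP genes, those of lower level had the more negative changes. In the 10 equal groups, each of 5015 shared regions ranked by mean log2 value, all shared regions had a median change of -0.11 in the seventh group and -0.24 in the strongest, and the protein-coding starts -0.27 and -0.28. The 40 RP genes of the strongest group had a median change of -0.32, the 24 of the next -0.36, and the 13 RP genes below these -0.42. Of those 13, 12 were separated and lower, against 25 of 40 in the strongest group. Over protein-coding start regions this share was 35.8% in groups 6 to 8, which hold the 13, and 53.7% in the strongest group. The 13 include the low start regions of RPL32, RPL38, RPL4, RPS23 and RPS29, with changes of -0.40, -0.42, -0.34, -0.58 and -0.47, and that of RPL36A, with a change of 0.015. This is a description over genes that share the same 6 samples, and it was not tested.

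**Figure D5:**
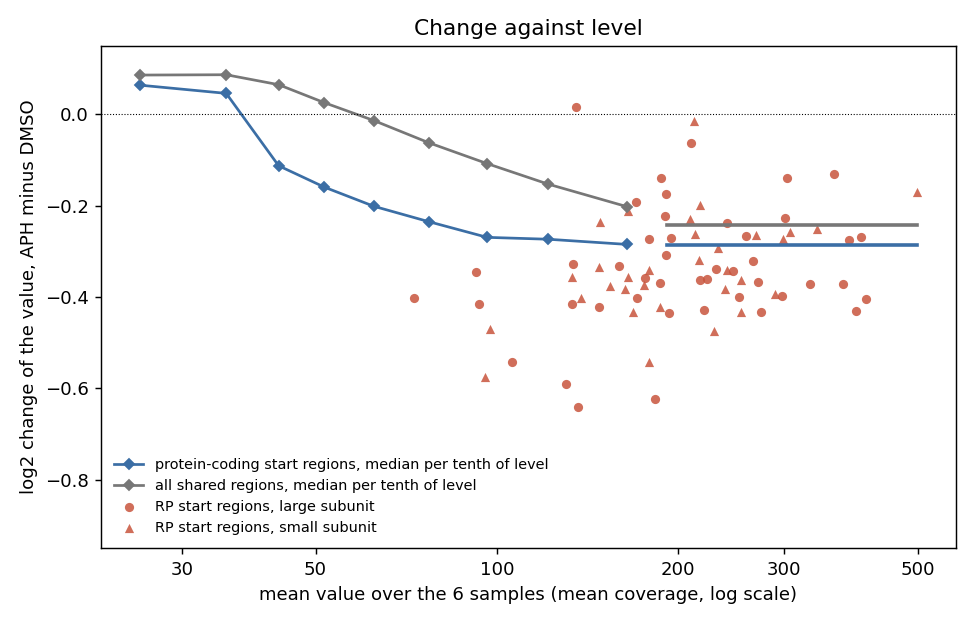
Log2 change of the start region value from DMSO to APH (y axis) against the mean value over the 6 samples (x axis, log scale) for the 77 ribosomal protein genes, with circles for the large and triangles for the small subunit. Lines give the median change in each of 10 equal groups of level for all shared regions and for protein-coding start regions, drawn flat over the strongest group. The ribosomal protein genes run from -0.64 to 0.015, and the 5 with the lowest level lie below both lines.

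The start peaks were called somewhat narrower after APH. The log2 change of the covered length was below 0 in 70 of 77 RP start regions, from -0.70 to 0.08, with a median of -0.11 against -0.04 over protein-coding starts. No RP start region passed an adjusted p of 0.05 with limma, and over all shared regions 0.00199% were called wider and 0.0% narrower. At an unadjusted p below 0.05, 10 RP start regions were narrower and 0 wider, against 3.06% narrower and 3.16% wider over all shared regions and 4.75% and 1.22% over protein-coding starts. The groups were separated and narrower in 20 and wider in 0, against 6.11% and 5.62% of all shared regions and 7.56% and 2.94% of protein-coding starts. Single samples moved these counts. Without DMSO 2 the unadjusted count was 20 of 77, against 4.63% of all shared regions and 9.85% of protein-coding starts. It was 6, or 7.79%, without DMSO 3 or without APH 2, against 2.82% and 2.53% of protein-coding starts and 2.71% and 2.49% of all shared regions. The separated count was 44, or 57.1%, without DMSO 2, against 15.3% of all shared regions and 27.5% of protein-coding starts. Without APH 3 it was 39, or 50.6%, against 13.2% and 25%. The largest changes of width were in genes whose mean coverage changed little. RPS18, a small subunit gene, was covered over 917, 458 and 888 bp in DMSO and 457, 420 and 453 bp in APH, RPL11 over 828, 482 and 812 bp and 458, 459 and 460 bp, and RPL41 over 834, 867 and 639 bp and 541, 454 and 521 bp. In RPS18 and RPL11 the narrow DMSO 2 peak was also the one with the highest value, 307 and 255.

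Summing value times length over all peaks of a gene joins both measures. Peaks were called separately in each sample, so the sum varies with their called length and number as well as with coverage. In this unit, mean coverage times kb, the median change over 80 RP genes was -0.34, against -0.22 over all 15043 protein-coding genes tested. With limma, 26 RP genes, or 32.5%, had a lower sum in APH at an adjusted p of 0.05, and 0 a higher one. Over all genes 16.1% were called lower and 0.346% higher. The 26 comprised 21 of 48 large subunit genes and 5 of 32 small subunit genes, a difference that was not tested. At an unadjusted p below 0.05, 56 were lower and 0 higher, against 36.6% and 1.66% of all genes, and 53 were separated and lower and 0 higher, against 38.5% and 2.09%. With each sample centred on its median over genes, the unadjusted count was 14 lower and 2 higher, against 4.91% and 8.68% of all genes, and the separated count 16 and 2, against 8.79% and 10.2%. With quantile normalization they were 16 and 3, against 6.18% and 7.25%, and 17 and 4, against 10.0% and 8.73%. Without DMSO 2 the unadjusted count was 36 lower and 0 higher, against 34.8% and 4.06%.

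The summed signal of RPS12 fell from 140 ± 18.7 to 82.5 ± 18.7 (SD, n = 3, limma adjusted p = 0.031). That of RPLP0 fell from 326 ± 55.4 to 209 ± 39.3 (limma adjusted p = 0.029), RPL21 from 112 ± 2.94 to 70.0 ± 1.59 (limma adjusted p = 0.026) and RPL11 from 130 ± 21.2 to 82.8 ± 7.10 (limma adjusted p = 0.033). The RPL11 start region was called over 828, 482 and 812 bp in DMSO and 458, 459 and 460 bp in APH. Its value changed by -0.19, with overlapping groups. The part of length and of coverage in the sum was not tested. RPLP2 fell from 338 ± 29.3 to 238 ± 12.6 and RPL8 from 196 ± 2.46 to 139 ± 8.97, both with a limma adjusted p of 0.026. RPL5, RPL23, RPL7A and RPS29 also fell. RPL10, with its added downstream peak, had 241 ± 17.5 in DMSO and 258 ± 31.9 in APH (limma adjusted p = 0.53).

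These 26 calls depended on the scale and on single samples. They became more numerous with a replicate block, as given in the closing section. With centring, quantile normalization or no intensity trend in the fit, 0 RP genes passed, and over all genes the calls went from 2415 lower and 52 higher to 1, 0 and 0 lower and 4, 4 and 2 higher. With centring and quantile normalization the median change of all genes moved from -0.22 to 0.014 and -0.015, while that of the RP genes was -0.11 and -0.12. The RP calls also numbered 0 without DMSO 1, without DMSO 3, without APH 1 or without APH 2, where 0, 4, 0 and 2 of all genes were lower and 1, 3, 1 and 2 higher. They numbered 15 without DMSO 2 and 29 without APH 3. Over all genes 1664 were lower and 149 higher without DMSO 2, and 3717 lower and 214 higher without APH 3. Counting only peaks centred in the gene body left 26 RP genes to test, with a median change of -0.16, against -0.14 over all 11968 genes tested. The median change of the start region value went from -0.36 to -0.33 when centred and to -0.14 with quantile normalization, where it was -0.11 over protein-coding starts. With quantile normalization the separated and lower RP start regions went from 53 to 21, or 27.3%, against 12.3% of protein-coding starts, and 1 was separated and higher.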

How the data were processed

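ATAC-seq peak lists of 3 DMSO and 3 APH samples of RKO were used. The processing notes of the submitters name BWA 0.7.12, MACS2 2.1.0 and hg38. The authors called peaks per sample and deposited their positions with a signal, the mean coverage over the peak of alignments extended to 200 bp in 32 nt bins, not scaled to library size. Depth is unknown, so no counting interval is given.

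Genes and starts came from RefSeq GRCh38.p14, strand from the promoter table for 64 RP genes and from GENCODE by name for 17, and promoter sequences from RefSeq. Peaks were merged at 1 bp overlap, and a region's value in a sample was the length-weighted mean of its peaks. APH and DMSO were compared with limma 3.58.1 (R 4.3.3, eBayes with intensity trend) on log2(value + 1), on log2 covered length of the 50150 shared regions, and on log2(summed signal + 1) of 15043 genes with a peak in every sample. P-values were adjusted by Benjamini-Hochberg over all features at 0.05. Groups were called separated when no APH sample overlapped a DMSO sample. Fits were tested on simulated data with changes larger than those of the RP start regions. Recovery of changes as small as theirs was not tested.

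The RP genes, gene lists, motifs and named genes were chosen with earlier results of these data known. Named genes were the 5 highest and 5 lowest start regions, the 5 smallest p per direction with separated groups, genes without a start peak in all samples, the 5 with most peaks, and genes of fixed roles. RPL6, RPL36A, RPS18 and RPL41, and all other genes outside that rule, were named after their values were seen. Alternatives covered scaling, pseudocounts, filters, merging, start window, a replicate block and each sample left out. Of the genes this rule named, 2 are not reported here, and neither is 1 marker.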

Additional observations from a re-analysis of the deposited data

How the results depend on the processing

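For the start region value, 0 RP genes passed the adjusted p in every setting but the replicate block, which gave 53 lower (over all shared regions 5583 lower and 1021 higher). The replicate numbers were not taken to pair the samples, since pair 1 correlated below 0.1: the deviations of same-numbered samples correlated at -0.00665, 0.477 and 0.515, and DMSO 1 correlated best with APH 3. For the summed signal, the 26 calls became 0 when centred, quantile normalized or fitted with no intensity trend (over all genes 1, 0 and 0 lower), 60 with the replicate block (over all genes 6784 lower and 454 higher), 1 of 26 genes tested with no margin around the gene body (over all genes 15 lower and 4 higher, with medians of -0.16 for the RP genes and -0.14), and 0 to 29 with 1 sample left out (over all genes 0 to 3717 lower). Counting genes with a peak in at least 1 sample gave 22 (11.7% of all genes lower), and the other settings 26 (16.0% to 16.9%). The width had 0 calls in all settings. With 1 sample left out, the median change at the starts was -0.39 to -0.28. The strongest region at any listed start, a setting chosen after seeing the data, gave -0.36. Depth is unknown, so its part was not tested.

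Named genes changed sign as follows. At the start region, quantile normalization gave RPL11 0.0081, and leaving out 1 sample gave RPL11 -0.38 to 0.066, above 0 without DMSO 2. For the summed signal, centring gave RPL19 0.098, RPL27 0.028, RPL28 0.040, RPL35A 0.11, RPL39L 0.18, RPL4 0.075, RPS19 0.12 and RPS2 0.17. Quantile normalization gave RPL27 0.027, RPL28 0.034, RPL35A 0.12, RPL4 0.075, RPS19 0.12 and RPS2 0.17. RPL39L was 0.020 with a pseudocount of 10. With 1 sample left out, RPS2 ran from -0.17 to 0.044, above 0 without DMSO 2 or APH 3, RPL39L from -0.51 to 0.52, above 0 without DMSO 3 or APH 3, and RPL35A from -0.22 to 0.0063, above 0 without APH 3. Without the margin, which leaves out peaks centred before the start, RPL23 was 0.25, RPL28 0.25, RPL3L 0.46, RPL4 0.091 and RPS19 0.25. The cause was not tested. None of these values passed the threshold.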
